A study of Mus musculus with 4 samples.

Results

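The genes described here encode the proteasome, and were taken as every gene whose symbol begins with Psma, Psmb, Psmc, Psmd or Psme and a digit. Probe sets that the platform annotation assigns to exactly 1 gene symbol gave 51 probe sets and 45 such genes, among 19935 genes in all. Of the 45, 5 are inducible by interferon (Psmb8, Psmb9, Psmb10, Psme1 and Psme2) and 40 are not grouped as such. The rule also takes in 3 assembly chaperones (Psmd5, Psmd9 and Psmd10) and 2 genes named for proteins that interact with a subunit (Psmc3ip and Psme3ip1), which are counted as members and are not parts of the mature particle.

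The data come from Ba/F3, a mouse pro-B cell line that depends on the growth factor interleukin-3 (IL-3), and 4 Affymetrix Gene 1.0 ST arrays were analysed in 3 groups. One array came from Ba/F3 cells with a doxycycline-inducible BCR-ABL, a fused kinase that drives chronic myeloid leukaemia, kept in doxycycline at 500 ng/ml together with IL-3. The same kind of cells in doxycycline at 500 ng/ml without IL-3 gave 2 arrays, titled A and B. Parental Ba/F3 cells grown with IL-3 gave 1 array, and the labels name no doxycycline for them. Nothing in the labels tells if A and B are separate cultures, so p-values measure only the spread between these arrays, which may be technical. Whether the inducible cells were 1 clone or a pool is not given either.

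Every deposited value is a log2 difference from the parental array, so the parental value is 0 for each gene and absolute levels were not analysed. For the same reason the presence of pro-B markers could not be read, only their differences. Over all 19935 genes the median difference from the parental array was 0.01 on the array with IL-3, 0.0044 on array A and -0.08 on array B. Between A and B the SD of the differences over genes was 0.20 (log2). In bulk RNA, fewer cells that express a gene and less of its RNA per cell cannot be told apart.

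The proteasome degrades proteins tagged with ubiquitin. Its core is a barrel of alpha and beta rings with the proteolytic sites on beta subunits, and the regulatory particle on its ends binds ubiquitin chains, removes them and unfolds the substrate with a ring of ATPases. Interferons replace the catalytic subunits Psmb5, Psmb6 and Psmb7 with Psmb8, Psmb9 and Psmb10, which makes the immunoproteasome. Interferons also induce the PA28 activator made of Psme1 and Psme2, and together these changes favour peptides for presentation on MHC class I.

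Because the 5 interferon-inducible genes did not move alike in these cells, the DNA around their annotated starts is shown. Each window holds 250 bases before and 50 bases after the start, from RefSeq on GRCm38.p6, written 5′ to 3′ along the gene. Psmb3, a constitutive subunit that passed the test below, is shown beside them as 1 of 3 genes outside the inducible group whose window holds the interferon motif; the others, Psmd4 and Psmd9, did not pass and are not shown. Capitals mark matches on either strand to 4 motifs, namely the interferon-stimulated response element (GAAA, any 2 bases, GAAA), the STAT-type element TTCNNNGAA, the antioxidant response element TGACNNNGC and the E-box CACGTG. The motifs did not overlap in these windows.
Psmb8 (chr17:34197945-34198244, + strand): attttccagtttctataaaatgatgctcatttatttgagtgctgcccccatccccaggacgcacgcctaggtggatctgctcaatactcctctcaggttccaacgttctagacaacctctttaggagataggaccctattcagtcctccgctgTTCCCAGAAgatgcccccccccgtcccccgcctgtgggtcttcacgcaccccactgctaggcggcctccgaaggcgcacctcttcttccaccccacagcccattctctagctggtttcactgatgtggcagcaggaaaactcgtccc
Psmb9 (chr17:34187281-34187580, - strand): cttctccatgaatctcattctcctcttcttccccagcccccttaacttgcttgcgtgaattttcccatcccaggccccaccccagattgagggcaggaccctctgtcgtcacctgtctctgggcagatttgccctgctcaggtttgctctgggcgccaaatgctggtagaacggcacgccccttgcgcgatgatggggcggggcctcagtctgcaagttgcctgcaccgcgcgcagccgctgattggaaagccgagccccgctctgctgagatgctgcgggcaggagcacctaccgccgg
Psmb10 (chr8:105938343-105938642, - strand): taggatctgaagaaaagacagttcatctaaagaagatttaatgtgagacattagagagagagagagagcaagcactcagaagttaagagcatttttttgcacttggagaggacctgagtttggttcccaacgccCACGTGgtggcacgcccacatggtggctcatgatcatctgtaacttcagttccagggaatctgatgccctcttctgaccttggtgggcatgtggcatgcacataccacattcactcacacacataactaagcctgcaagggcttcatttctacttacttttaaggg
Psme1 (chr14:55578244-55578543, + strand): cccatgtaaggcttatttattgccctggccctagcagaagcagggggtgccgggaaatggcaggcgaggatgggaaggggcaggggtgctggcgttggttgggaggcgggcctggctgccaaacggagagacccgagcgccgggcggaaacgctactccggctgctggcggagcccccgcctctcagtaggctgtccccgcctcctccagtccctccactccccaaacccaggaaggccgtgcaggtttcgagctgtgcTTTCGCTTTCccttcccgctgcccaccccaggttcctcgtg
Psme2 (chr14:55591052-55591351, - strand): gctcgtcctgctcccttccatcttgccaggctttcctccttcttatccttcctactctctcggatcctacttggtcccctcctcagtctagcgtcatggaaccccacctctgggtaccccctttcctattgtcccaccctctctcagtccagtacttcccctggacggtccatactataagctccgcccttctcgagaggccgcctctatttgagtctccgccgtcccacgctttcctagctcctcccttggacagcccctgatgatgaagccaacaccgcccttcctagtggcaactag
Psmb3 (chr11:97703184-97703483, + strand): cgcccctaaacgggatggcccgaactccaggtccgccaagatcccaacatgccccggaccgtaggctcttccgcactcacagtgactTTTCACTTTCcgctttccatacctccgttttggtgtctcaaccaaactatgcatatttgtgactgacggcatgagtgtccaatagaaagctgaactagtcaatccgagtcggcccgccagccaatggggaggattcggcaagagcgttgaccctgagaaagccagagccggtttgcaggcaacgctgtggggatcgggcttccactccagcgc

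Windows were at hand for 38 of the 45 genes, and Psme2 has a second window that was searched too. The interferon element matched in 4 of these 38 genes (10.5%), Psmb3, Psmd4, Psmd9 and Psme1, against 3.99% of all 27025 genes with a window. The match of Psme1 lies at bases 10 to 19 after its start and that of Psmb3 at bases -163 to -154, both on the reverse strand. Of these 4 genes Psmb3 was called in the first test below, while Psmd4, Psmd9 and Psme1 were not (adjusted p = 0.38, 0.983 and 1 by limma). The STAT-type element matched in Psmb8 and Psmd2 (5.26% of the 38 genes, against 9.55% of all genes), and in Psmb8 at bases -97 to -89. The antioxidant response element, the kind of site bound by the factor that raises proteasome genes when degradation is blocked, matched in 6 genes, Psmb5, Psmb6, Psmc6, Psmd12, Psmd9 and Psme4 (15.8%, against 14% of all genes). The E-box matched in 5 genes (13.2%, against 8.09% of all genes), 1 of them Psmb10 at bases -116 to -111. The CCAAT box was searched too (CCAAT, not in capitals here) and matched in 16 genes (42.1%, against 41.1% of all genes). The window of Psmb9 and those of Psme2 held none of the 4 motifs marked by capitals. A match is a run of letters and not a shown binding site, and a missing match says only that these letters are not in this window.

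BCR-ABL cells without IL-3 were first compared with parental cells in IL-3, which asks how transcripts differ when the kinase stands in for the growth factor. Most proteasome genes were modestly higher in BCR-ABL cells. Arrays A and B both lay above the parental array for 37 of 45 genes, against 27.9% of all genes, and both lay below it for 5, against 42% of all genes. The median difference was 0.34 (log2) over the 45 genes and -0.04 over all genes. In limma's moderated test over all genes 7 of 45 were called higher (15.6%) and 0 lower, at an adjusted p under 0.05, where 5.19% of all genes were called higher and 2.87% lower. The called genes were Psmc4, Psmb10, Psme2, Psmd7, Psmc3ip, Psmb3 and Psmc5. Without Psmc3ip and Psme3ip1, which are not subunits, 6 of 43 were called higher (14%). At an unadjusted p under 0.05 there were 27 of 45, against 16.6% of all genes.

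Both arrays were at least 1.5-fold above the parental array for 4 genes, Psmc4, Psmb10, Psme2 and Psmd7, and for 3.18% of all genes. They were as far below it for 0 of 45, and for 1.73% of all genes.

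The kinase, the drug that induces it, the derived line and the lack of IL-3 changed together here and cannot be told apart. With arrays centred on their medians over probe sets 3 genes were called higher, Psmc4, Psmb10 and Psme2, against 1.93% of all genes higher and 0.933% lower. With medians over genes 5 were called higher, against 3.2% of all genes higher and 1.5% lower, and at an adjusted p under 0.1 without centring 14 were, against 6.51% higher and 3.82% lower. The median difference of the 45 genes was 0.38 under either centring, against 0.34 without it. The prior degrees of freedom that limma estimated were 16.4 without centring, 4.21 with centring over probe sets and 5.02 over genes. The cause of the change in calls was not tested.

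**Figure D1:**
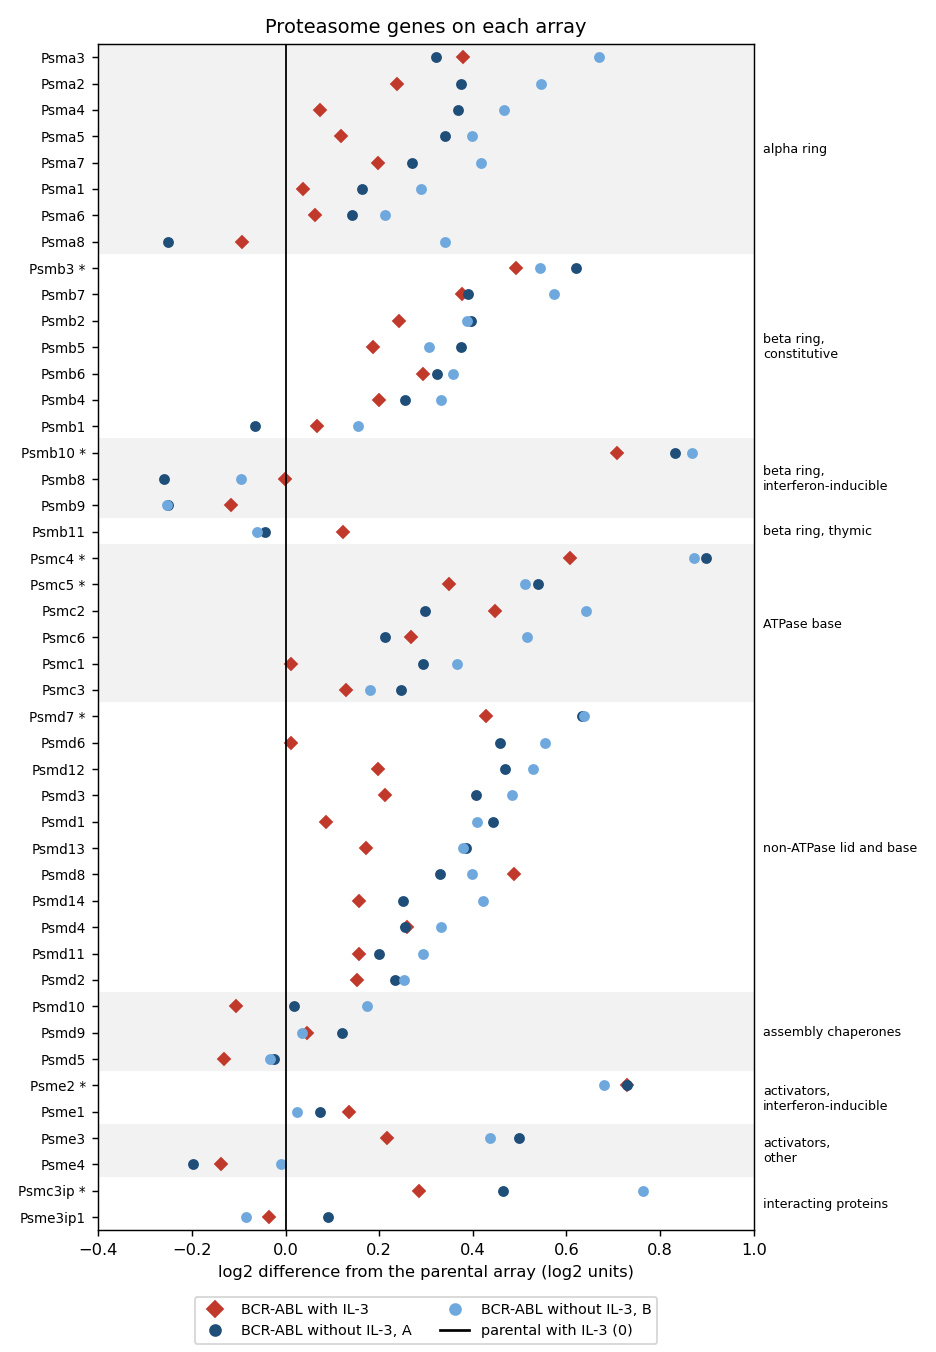
Log2 difference from the parental array (horizontal axis, log2 units) for each of the 45 genes, grouped by role and sorted within a role by the mean of A and B. Red diamonds are the BCR-ABL array with IL-3, dark and light blue circles the BCR-ABL arrays A and B without IL-3, and the vertical line at 0 is the parental array. Asterisks mark the 7 genes called higher without IL-3. Most points lie right of 0, and Psmb8 and Psmb9 lie left of it or on it.

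The alpha ring forms the gate of the barrel. Its 8 genes had a median difference of 0.36 between BCR-ABL cells without IL-3 and parental cells. In this ring 0 of 8 were called, where 5.19% of all genes were called higher and 2.87% lower. Psma3, the highest of them, was at 0.32 on A and 0.67 on B, against 0 on the parental array (mean 0.50 ± 0.25, SD, n = 2, adjusted p = 0.0915 by limma). Its 3 probe sets differed by at most 0.05 in the mean of A and B. Psma8, an alpha subunit of the testis, was the lowest and the least steady, at -0.25 on A and 0.34 on B. A and B therefore lay on opposite sides of the parental array for Psma8, and only for Psmb1 and Psme3ip1 besides. All 8 alpha ring genes were higher on B than on A, with a median difference of 0.14, while 33.8% of all genes were higher on B.

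Of the 7 constitutive beta ring genes 6 were above the parental array on both A and B, against 27.9% of all genes. In this ring 1 of 7 was called higher (14.3%), against 5.19% of all genes. That gene, Psmb3, a structural subunit without proteolytic activity, was at 0.62 on A and 0.54 on B, against 0 in parental cells (mean 0.58, SE 0.15, adjusted p = 0.0227 by limma). A and B were close and both lay above the parental array, and the 2 probe sets of Psmb3 differed by 0.04. Centred on the array medians over probe sets its mean was 0.62 (adjusted p = 0.0605 by limma), and over genes it was also 0.62 (adjusted p = 0.0439). Psmb1, a structural subunit of the same ring, was the lowest at -0.07 on A and 0.16 on B.

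The ATPase base, the ring of 6 motor proteins that unfolds substrates, had the highest median of the role groups with over 3 genes, 0.42. All 6 genes lay above the parental array on A and B, against 27.9% of all genes. Psmc4 had the largest difference of all 45 genes, at 0.90 on A and 0.87 on B, against 0 in parental cells (1.85-fold, SE 0.15 log2, adjusted p = 0.000955 by limma). Psmc5 was at 0.54 on A and 0.51 on B (1.44-fold, adjusted p = 0.0407 by limma), and after centring over probe sets its mean was 0.56 and its adjusted p 0.0754. For both genes the distance between A and B was far smaller than their distance from the parental array. Psmc3 was the lowest of the ring, at 0.25 on A and 0.18 on B. Psmc3ip is not part of the ring and acts in meiotic recombination. It was at 0.46 on A and 0.76 on B (1.53-fold, adjusted p = 0.0252 by limma), and after centring over probe sets its mean was 0.65 and its adjusted p 0.15.

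The non-ATPase subunits build the lid and the rest of the base, where ubiquitin chains are bound and cut off. All 11 lay above the parental array on A and on B, against 27.9% of all genes. Their median was 0.38 and their range 0.24 to 0.64, the narrowest of the larger groups. Psmd7, the partner of the deubiquitinase subunit, was the 1 gene called (9.09% of the 11, against 5.19% of all genes called higher). It was at 0.63 on A and 0.64 on B, against 0 in parental cells (1.55-fold, SE 0.15 log2, adjusted p = 0.0126 by limma). Centred over probe sets its mean was 0.67 (adjusted p = 0.0538 by limma), and over genes it was also 0.67 (adjusted p = 0.0389). Psmd14, the lid's deubiquitinase itself, was at 0.25 on A and 0.42 on B and was not called. Psmd6 and Psmd12, lid subunits of the same scaffold, stood just outside the threshold with means of 0.51 and 0.50 (adjusted p = 0.0519 and 0.0546 by limma). Psmd2, a base subunit that receives ubiquitin-like domains, was the lowest of the 11 at 0.23 on A and 0.25 on B.

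The chaperones Psmd5, Psmd9 and Psmd10 guide assembly of the base and leave before the particle is complete. Their differences between BCR-ABL cells without IL-3 and parental cells were -0.03, 0.08 and 0.10. Of the 3 chaperones 0 were called, against 5.19% of all genes called higher and 2.87% lower. Psmd5, the lowest, was at -0.03 on both arrays. The difference of Psmd5 turned to 0.0033 when arrays were centred on their medians.

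The 5 interferon-inducible genes split. Psmb10 and Psme2 were called higher, and Psmb8, Psmb9 and Psme1 were not called. That is 2 of 5 called higher (40%) and 0 lower, against 5.19% of all genes called higher and 2.87% lower. The median of the 5 was 0.05 in BCR-ABL cells without IL-3 over parental cells, and that of the other 40 genes was 0.35. The median of the 5 was 0.024 on B alone, 0.073 on A alone and 0.081 with arrays centred over probe sets. Psmb10, the inducible counterpart of Psmb7, was at 0.83 on A and 0.87 on B, against 0 in parental cells (1.80-fold, SE 0.15 log2, adjusted p = 0.00138 by limma). Psme2, the beta chain of PA28, was at 0.73 on A and 0.68 on B, against 0 in parental cells (1.63-fold, SE 0.15 log2, adjusted p = 0.00596 by limma). Both genes therefore lay well above the parental array on each array, with A and B close together.

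Psmb8, the inducible counterpart of Psmb5, was at -0.26 on A and -0.10 on B (mean -0.18, 95% interval -0.51 to 0.15, adjusted p = 0.788 by limma). Psmb9, the inducible counterpart of Psmb6, was at -0.25 on both arrays (mean -0.25, 95% interval -0.57 to 0.07, adjusted p = 0.509 by limma). Both intervals lie within a 1.5-fold change in either direction, which is 0.585 on the log2 scale. Psme1, the alpha chain of PA28 and the partner of Psme2 in the same ring, was at 0.07 on A and 0.02 on B (95% interval -0.27 to 0.37). These 3 genes gave no call in either direction.

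**Figure D2:**
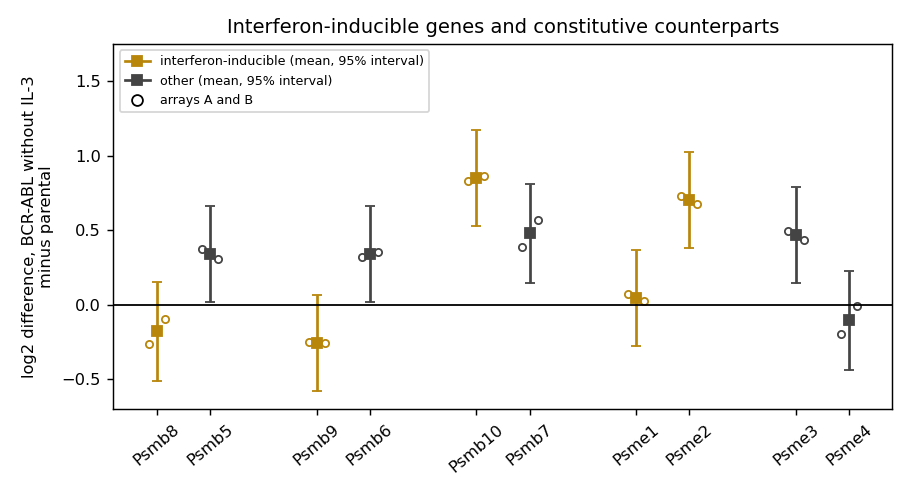
Log2 difference of BCR-ABL cells without IL-3 minus parental cells (vertical axis) for each interferon-inducible gene (gold) beside its constitutive counterpart or related activators (grey). Squares are means of A and B, bars the 95% intervals of the limma fit, and open circles arrays A (left) and B (right). Psmb10 and Psme2 lie at 0.85 and 0.71, while Psmb8 and Psmb9 lie at -0.18 and -0.25.

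Set against the constitutive subunit that each replaces, the inducible subunits went both ways. Psmb5, the constitutive subunit that Psmb8 replaces, was at 0.38 on A and 0.31 on B. The difference of Psmb8 was thus below that of Psmb5 by 0.64 on A and 0.40 on B. Psmb6, the counterpart of Psmb9, was at 0.32 on A and 0.36 on B, and the difference of Psmb9 was below it by 0.57 on A and 0.61 on B. Psmb7, the counterpart of Psmb10, was at 0.39 on A and 0.57 on B, and the difference of Psmb10 was above it by 0.44 on A and 0.29 on B. Psmb5, Psmb6 and Psmb7 were themselves not called (adjusted p = 0.257, 0.257 and 0.0744 by limma). These are differences between changes, and they say nothing of which subunit is more abundant. They were not tested.

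The other activators also differed from each other. Psme3, the nuclear PA28 gamma, was at 0.50 on A and 0.44 on B (adjusted p = 0.0748 by limma). Psme4, the PA200 cap, was at -0.20 on A and -0.01 on B (adjusted p = 0.964 by limma). Psmb11, the thymic beta subunit, was at -0.04 on A and -0.06 on B, and its probe set is the only one of the 51 whose stored signal shows it to be dim. Psme3ip1 was at 0.09 on A and -0.09 on B.

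The position of the inducible genes in the genome was set beside their values after these were seen. In the RefSeq table of GRCm38.p6 Psmb9, Tap1, Psmb8 and Tap2 follow each other as protein-coding neighbours on chromosome 17, within the MHC. Tap1 and Tap2 encode the transporter that carries peptides into the endoplasmic reticulum for class I loading. Tap1 was at -0.35 on A and -0.41 on B (adjusted p = 0.18 by limma). Tap2 was at -0.74 on A and -0.94 on B, against 0 in parental cells (1.79-fold lower, SE 0.16 log2, adjusted p = 0.00205 by limma). All 4 neighbours were below the parental array on both A and B, as were 42% of all genes, and of the 4 only Tap2 was called. Psme1 and Psme2 lie on chromosome 14 with 1 protein-coding gene, Emc9, between them, and Psmb10 lies on chromosome 8.

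Genes that work with the proteasome were read from 4 lists, chosen with earlier results of these data known. Of 13 assembly and associated factors 12 were measured, and 3 were called higher (25%, against 5.19% of all genes) and 0 lower (against 2.87%), with a median of 0.29 in BCR-ABL cells without IL-3 over parental cells. The called genes were Psmg2 (0.62 on A and 0.83 on B, 1.65-fold) and its partner Psmg1 (0.45 and 0.74, 1.51-fold), which together start the alpha ring, and the proteasome-bound deubiquitinase Uchl5 (0.43 and 0.89, 1.58-fold). Their adjusted p-values by limma were 0.00655, 0.0314 and 0.0284, and after centring 0.0743, 0.158 and 0.22. Pomp, the maturation factor of the core, was at 0.44 on A and 0.51 on B and was not called.

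Of 16 transcriptional regulators 14 were measured, and 2 were called higher (14.3%, against 5.19% of all genes) and 1 lower (7.14%, against 2.87%), with a median of 0.05. Nfe2l1, the factor that raises proteasome genes when degradation is blocked, was at 0.47 on A and 0.63 on B (1.46-fold, adjusted p = 0.0367 by limma). Nlrc5, the activator of MHC class I genes, was at 0.60 on A and 0.52 on B (1.48-fold, adjusted p = 0.028 by limma). Bach1, a repressor at antioxidant response elements, was at -1.06 on A and -0.94 on B (SE 0.16, adjusted p = 0.000352 by limma). After centring only Bach1 of these kept its call (adjusted p = 0.0346, against 0.117 for Nfe2l1 and 0.065 for Nlrc5, by limma). Ngly1, which activates the Nfe2l1 protein by removing its glycans, was at 0.41 on A and 0.60 on B and was not called. Irf1, an interferon-induced activator of immunoproteasome genes, was at 0.11 on A and -0.02 on B and was not called.

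Of 14 genes of antigen processing and MHC class I 11 were measured, and 1 was called higher (9.09%, against 5.19% of all genes) and 2 lower (18.2%, against 2.87%), with a median of 0.32. Lap3, a cytosolic leucine aminopeptidase, was at 0.54 on A and 0.77 on B (1.57-fold, adjusted p = 0.0136 by limma). Npepps, another cytosolic aminopeptidase, was at -0.71 on A and -0.55 on B (1.55-fold lower, adjusted p = 0.0154 by limma). Neither Lap3 nor Npepps kept its call after centring (adjusted p = 0.0979 and 0.105 by limma), whereas Tap2, the other called gene, did (adjusted p = 0.0445 by limma). B2m, the light chain of class I, was at 0.26 on A and 0.37 on B and was not called. Of 15 genes of ubiquitin supply and shuttling 9 were measured and 0 were called, with a median of 0.26. The highest of these was Nsfl1c, a cofactor of the unfolding ATPase p97, at 0.63 on A and 0.40 on B.

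**Figure D3:**
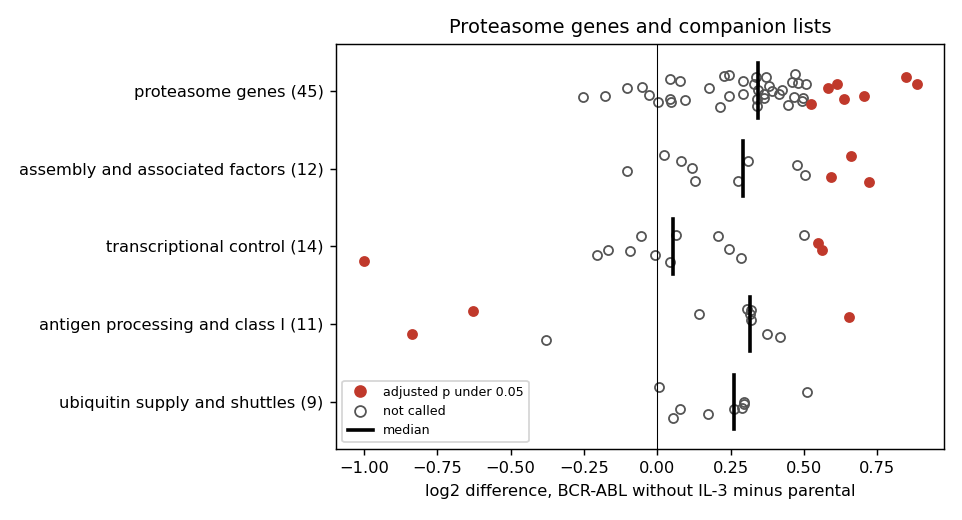
Log2 difference of BCR-ABL cells without IL-3 minus parental cells (horizontal axis) for the 45 proteasome genes and the measured genes of 4 companion lists. Each circle is 1 gene, filled red at an adjusted p under 0.05 and open otherwise, with vertical scatter for legibility, and black bars are medians. The proteasome median is 0.34, and the transcriptional regulators spread on both sides of 0 around 0.05.

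Markers of cell types were read beside these values. Of 9 pro-B markers, 9 neutrophil and monocyte markers, 6 T and NK cell markers and 5 dendritic cell markers 0 were called. Their medians were -0.12, 0.0092, -0.12 and -0.05 in BCR-ABL cells without IL-3 over parental cells. In that comparison 5.19% of all genes were called higher and 2.87% lower. Of 6 mast cell and basophil markers Cpa3 was called higher (8.21-fold) and Cma1 lower (1.87-fold), with a median of -0.18. After centring over probe sets Cpa3 kept its call and Cma1 did not (adjusted p = 0.00821 and 0.0537 by limma). The part of these markers in the proteasome values was not tested.

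BCR-ABL cells with IL-3 were then compared with BCR-ABL cells without it, which asks what the growth factor changes in cells that already express the kinase. No proteasome gene was called in either direction by limma, where 1 of 19935 genes (0.00502%) was called higher and 0 lower. At an unadjusted p under 0.05 there were 3 of 45 genes (6.67%), against 4.52% of all genes. The array with IL-3 lay below both A and B for 30 of 45 genes (66.7%), where this held for 25.5% of all genes. It lay above both for 5 genes (11.1%), against 39.9% of all genes. At least 1.5-fold above both were 0 of 45 genes, against 0.0752% of all genes, and 1.5-fold below both 0 of 45, against 0.0401%. The median difference was -0.12 over the 45 genes and 0.03 over all genes. Arrays A and B enter this comparison and the first one, so the 2 sets of values are not independent.

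**Figure D4:**
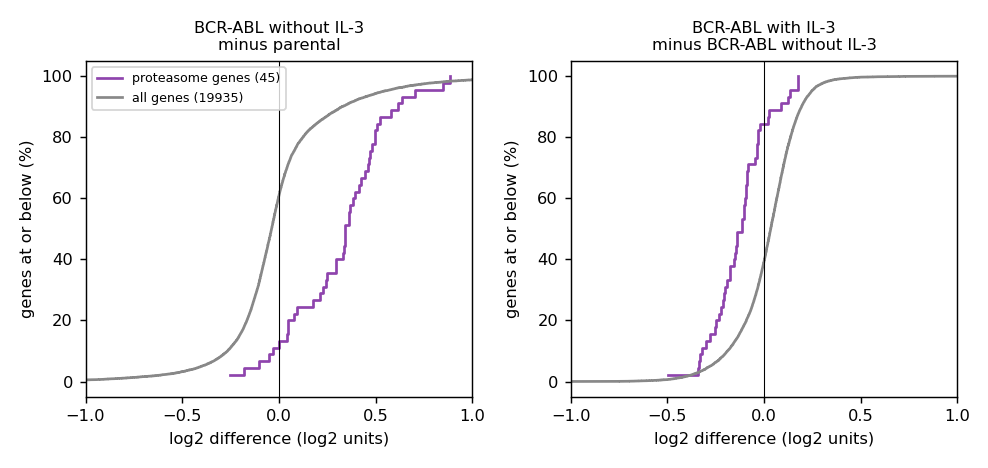
Cumulative share of genes (vertical axis, %) at or below each log2 difference (horizontal axis, cut at -1 and 1) for the 45 proteasome genes (purple) and all 19935 genes (grey). The left panel shows BCR-ABL without IL-3 minus parental, and the right panel BCR-ABL with IL-3 minus BCR-ABL without IL-3. The purple curve lies right of the grey one on the left, with a median of 0.34 against -0.04, and left of it over most of its range on the right, with a median of -0.12 against 0.03.

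The lid subunit Psmd6 showed the largest difference in this comparison. It was at 0.01 on the array with IL-3, against 0.46 on A and 0.55 on B (difference -0.50, SE 0.15, 95% interval -0.82 to -0.17, adjusted p = 0.691 by limma). With IL-3 its value was thus next to that of the parental array. Psma4 of the alpha ring was at 0.07 with IL-3, against 0.37 on A and 0.47 on B, and the base subunit Psmd1 at 0.09 with IL-3, against 0.44 on A and 0.41 on B. These are the 3 genes with an unadjusted p under 0.05, and none of them passed the adjustment.

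By role, the array with IL-3 lay below A and B for 6 of 8 alpha ring genes and 6 of 7 constitutive beta ring genes. It did so for 4 of 6 ATPases and 9 of 11 non-ATPase subunits, where this held for 25.5% of all genes. The group medians were -0.17, -0.09, -0.14 and -0.21. The largest gene of the first comparison, Psmc4, was at 0.61 with IL-3, against 0.90 on A and 0.87 on B. Psmd8, a lid subunit, was the only gene of these 4 groups above both arrays, at 0.49 with IL-3, against 0.33 on A and 0.40 on B. Of all genes 39.9% lay above both.

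Of the 5 interferon-inducible genes 3 lay above A and B on the array with IL-3, where 39.9% of all genes did. The median difference of the 5 was 0.09, and that of the other 40 genes -0.14. Psmb8 was at -0.0009 with IL-3, against -0.26 on A and -0.10 on B (difference 0.18, 95% interval -0.15 to 0.51). Psmb9 was at -0.12 with IL-3, against -0.25 on each of A and B (difference 0.14, 95% interval -0.19 to 0.46). Psme1 was at 0.14 with IL-3, against 0.07 on A and 0.02 on B. Psmb10 was below both, at 0.71 with IL-3, against 0.83 on A and 0.87 on B. Psme2 was level, at 0.73 with IL-3, against 0.73 on A and 0.68 on B. None of these 5 differences passed the test, and their intervals leave room for changes in either direction.

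Among the other activators Psme3 was at 0.22 with IL-3, against 0.50 on A and 0.44 on B, and Psme4 at -0.14 with IL-3, against -0.20 on A and -0.01 on B. The thymic subunit Psmb11 was at 0.12 with IL-3, against -0.04 on A and -0.06 on B. Psme3 thus lay below both arrays, Psme4 between them and Psmb11 above both, and none of them was called. With IL-3 the difference of each inducible subunit from the parental array lay on the same side of that of its counterpart as on A and B. Psmb8 was below Psmb5 by 0.19 (0.64 on A and 0.40 on B). Psmb9 was below Psmb6 by 0.41 (0.57 on A and 0.61 on B). Psmb10 was above Psmb7 by 0.33 (0.44 on A and 0.29 on B). Within PA28, Psme2 was above Psme1 by 0.59. These gaps are differences between changes and say nothing of which subunit is more abundant. The gaps with IL-3 come from 1 array and were not tested.

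Of the companion lists 0 genes were called between BCR-ABL cells with and without IL-3, against 0.00502% of all genes called higher and 0 lower. The medians were -0.14 for the assembly and associated factors, 0.15 for the transcriptional regulators, -0.0071 for antigen processing and -0.15 for ubiquitin supply. Tap1, next to Psmb8 and Psmb9 in the MHC, was at -0.02 with IL-3, against -0.35 on A and -0.41 on B, and Tap2 at -0.54 with IL-3, against -0.74 on A and -0.94 on B. Each of the 4 genes of that stretch was higher with IL-3 than on A and on B, as were 39.9% of all genes, and none of the 4 differences passed the test.

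BCR-ABL cells with IL-3 were also compared with parental cells, both grown with IL-3. Each group has 1 array, so that neither has a replicate and genes are described by size. The kinase, the drug that induces it and the derived line changed together here and cannot be told apart. Of 45 genes 38 were above the parental array, against 52.6% of all genes, and 7 below it, against 47.4%. The median difference was 0.17, against 0.01 over all genes. At least 1.5-fold higher were 3 genes (6.67%), against 3.3% of all genes, and 0 were at least 1.5-fold lower, against 2.53% of all genes. The 3 were Psme2 (0.73 with IL-3, 1.66-fold), Psmb10 (0.71, 1.63-fold) and Psmc4 (0.61, 1.52-fold). If both single arrays are assumed to vary as A and B do, limma puts Psme2 and Psmb10 under an adjusted p of 0.05 (2.51% of all genes higher, 1.79% lower), with a spread that comes from neither of the groups compared. The lowest were Psme4 at -0.14, Psmd5 at -0.13 and Psmb9 at -0.12. The median was 0.14 for the 5 interferon-inducible genes and 0.18 for the other 40. The parental array and the array with IL-3 each also enter another comparison above.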

How the data were processed

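RNA from Ba/F3 cells was turned into sense cDNA, labelled with biotin and hybridised to 4 Gene 1.0 ST arrays, per the labels' protocols. The deposited values were read as log2 differences from the parental array, because that column is 0 in all 28815 probe sets. Base 2 was inferred from their spacing: 99.8% of 86431 non-zero values are multiples of 2 to the power -21, the step of single-precision log2 signals. Background correction, normalization and probe summary are not given in the sources used here. Probe sets with an odd multiple of that step were stored below 8 on at least 1 array, and these 11030 are called dim.

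Probe sets with 1 symbol in the platform annotation (21780) were averaged into 19935 genes, with no filter on low values. All 45 proteasome genes matched the RefSeq table (GRCm38.p6) by gene identifier. One model of 3 group means was fitted to all genes with limma 3.58.1 in R 4.3.3, without a trend, with two-sided tests and Benjamini-Hochberg adjustment over all genes. Its 1 residual degree of freedom is the difference of A and B, and the single arrays of the other groups were taken to vary as A and B do. The script was tested on simulated data. The number of arrays limits the precision. Members, lists and the rule for named genes (the interferon-inducible genes and their counterparts, called genes, the extremes of each subunit family, and up to 4 genes of each companion list) were chosen with earlier results of these data known. Psma4, Psmb1, Psmb11, Psmd1, Psmd2, Psmd4, Psmd6, Psmd8, Psmd12, Psmd14, Psme3ip1, Psmd9, Psmd10, Pomp, Irf1, Tap1 and B2m were named outside that rule after their values were seen.

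The alternatives centred each array on its median over probe sets or, chosen after seeing the data, over genes. Others left out dim probe sets, took single probe sets, used a threshold of 0.1, fitted only the 2 groups compared, or left out A or B. Counts were also made without members that are not subunits, and the set without Psmc3ip and Psme3ip1 was chosen after seeing the data.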

Additional observations from a re-analysis of the deposited data

Results flagged for a closer look

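A probe set that the platform annotation assigns to both Psme2b and Psme2 was left out of all comparisons, since it names 2 genes, and it lay above the parental array on every other array. Its log2 difference from the parental array was 0.91 in BCR-ABL cells with IL-3, 0.93 on array A and 1.11 on array B. The Psme2 probe set used above stood at 0.73, 0.73 and 0.68 on the same arrays, so both probe sets were higher in all BCR-ABL cells, and they differed on whether A or B was the higher. Signal from Psme2 and from Psme2b cannot be told apart in it.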

How the results depend on the processing

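In BCR-ABL cells without IL-3 over parental cells 7 proteasome genes were called higher, where 5.19% of all genes were. The count became 3 with arrays centred on their medians over probe sets (1.93% of all genes). It was 5 with centring over genes (3.2% of all genes) and 14 at a threshold of 0.1 (6.51%). The median difference of the members was 0.38 under either centring, against 0.34. Without dim probe sets, with single probe sets and in the fit of 2 groups the count stayed within 1.5 times. The shares of all genes called in these settings were not counted. The count was 6 without Psmc3ip and Psme3ip1, and also 6 without Psmc3ip, Psmd5, Psmd9 and Psmd10, beside the same 5.19% of all genes. Under these alternatives 0 members were called lower over parental cells, and 0 were called in either direction between BCR-ABL cells with and without IL-3. Of all genes 2.87% were called lower over parental cells without centring, 0.933% and 1.5% with centring over probe sets and genes, and 3.82% at 0.1. In the comparison of IL-3 0.00502% of all genes were called higher without centring, 0 under either centring and 0.01% at 0.1, and 0 lower in each. At least 2-fold higher in BCR-ABL cells with IL-3 over parental cells were 0 members, in place of 3 at 1.5-fold. The share of all genes at 2-fold was not counted, so this drop has no background beside it. Leaving out A or B leaves no residual degree of freedom, so it gives values and no test. The medians for BCR-ABL without IL-3 over parental then ranged from 0.30 to 0.39 for all members and from 0.024 to 0.073 for the 5 interferon-inducible genes, and those for BCR-ABL with IL-3 over BCR-ABL without it from -0.16 to -0.11 for all members, from 0.062 to 0.095 for the 5 interferon-inducible genes and from -0.20 to -0.12 for the others. In the comparison of IL-3, centring gave the 5 genes 0.051 (0.042 over genes), and centring over genes gave all members -0.16. Over parental cells, centring over genes gave the 5 genes 0.085, and over probe sets 0.081. With 1 of A and B left out Psma8 ranged from -0.25 to 0.34 over parental cells, and in the comparison of IL-3 Psma3 ranged from -0.29 to 0.058, Psma8 from -0.43 to 0.16, Psme4 from -0.13 to 0.059 and Psme2 from -0.0014 to 0.049. Centring turned Psme2 to -0.012 (-0.021 over genes) in the comparison of IL-3, and Psmd5 to 0.0033 (0.0068 over genes) over parental cells. The cause of these changes was not tested. No paired analysis was possible because only 1 group has more than 1 array.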
